A study of Mus musculus with 4 samples.

Results

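The genes described here are the replication-dependent histone genes of the mouse, chosen by name: every gene whose symbol begins with Hist1h, Hist2h, Hist3h or Hist4h and that had at least 20 unique molecular identifiers (UMIs, each standing for 1 captured transcript) over the 4 libraries, in cell barcodes with more than 1000 detected genes and under 10% mitochondrial UMIs. Of 32285 genes counted, 67 symbols matched and 64 were kept. *Hist1h2ao*, with 78 UMIs, was the lowest gene kept. *Hist1h4m* and *Hist2h2aa2*, with 6 UMIs each, and *Hist1h2bq*, with 1, were the genes left out. The 64 genes comprised 6 for the linker histone H1, 17 for H2A, 17 for H2B, 12 for H3 and 12 for H4. Among them, *Hist1h2aa*, *Hist1h2ba* and *Hist1h1t* encode the germ-line histones TH2A, TH2B and H1t, and the other 61 are called canonical here.

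The libraries were 10x Genomics 3′ single-cell RNA-seq libraries from testes of mice at postnatal day 15, from 2 wild-type and 2 *Meioc*-null pups, with 1 testis per pup. The protein made from *Meioc* is found in germ cells, has YTHDC2 and RBM46 as its partners, and is needed around meiotic entry. The null allele was *Meioc*tm1.1Dpc, backcrossed to C57BL/6N. Mice of both genotypes were also heterozygous for *Hspa2*tm1Dix and homozygous for a *ROSA26-tdTomato* reporter whose stop cassette was intact, so the controls carried these alleles too. Each of the 2 batches held 1 wild-type and 1 *Meioc*-null littermate, and replicate 1 of both genotypes is batch 1. The 4 pups are the replicates, so litter and batch cannot be told apart.

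Histone genes are switched on together when a cell copies its DNA, since the new DNA must be packed at once. Their messenger RNAs differ from nearly all others in ending at a short stem-loop, which is bound by the protein SLBP, in place of a poly(A) tail, and they are destroyed when replication ends. In the testis, spermatogonia divide several times, copy their DNA once more as preleptotene spermatocytes, and then enter meiotic prophase, where part of the canonical histones is exchanged for the germ-line forms TH2A, TH2B and H1t. The libraries were primed from poly(A), so the UMIs of a histone gene count transcripts with a tail or an internal run of A, and not the whole pool of its messenger RNA.

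The annotated ends of the 64 genes differed. The gene models of GENCODE vM21 (GRCm38) held a 3′ UTR for 51 genes, and in 42 of these a stem-loop was found, searched by the stem-loop consensus on the sense strand. A polyadenylation signal, AATAAA, lay in the last 60 bases of 11 models, and 9 of those held both elements. The 13 models without a 3′ UTR included *Hist1h2aa* and *Hist1h2ba*, so their ends were not examined. *Hist1h2ap* and *Hist1h2ao*, near-identical H2A genes, had a run of 12 A just before the stem-loop, and 7 genes had a run of at least 8 A in the 3′ UTR. The stretches below, 5′ to 3′ on the sense strand, show the stem-loop in capitals for the H2A gene with the most UMIs and for an H4 and another H2A gene whose levels differed by genotype, and then the polyadenylation signal in capitals for the linker histone gene *Hist1h1c*, the H2A gene *Hist1h2ae* and the germ-line gene *Hist1h1t*.
Hist1h2ap: aaaaaaaaaaaGGCTCTTTTCAGAGCCatc
Hist1h4d: caaaaaccaaaGGCCCTTTTCAGGGCCact
Hist1h2ab: accaaaacaaaGGCTCTTTTCAGAGCCacc
Hist1h1c: atgcttctAATAAAaagcgtttagtttt
Hist1h2ae: gcttctccAATAAAtgggtcaatttttt
Hist1h1t: tacgccagAATAAAggtcaccattgaaa

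The 33 genes with a stem-loop and no polyadenylation signal had a median of 3935 UMIs (range 78 to 464281). The 9 genes with both had a median of 3695 UMIs (419 to 40832), and the 13 genes without a 3′ UTR in the model had a median of 3900 UMIs (140 to 204395). The 7 genes with a 3′ UTR but neither element had a median of 1121 UMIs (113 to 203440), and *Hist1h4a* and *Hist2h2be*, with the signal alone, had 4600 and 356. The ranges overlapped, and no test was made.

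*Hist1h2aa* (chromosome 13, 23934462 to 23934851, plus strand) and *Hist1h2ba* (chromosome 13, 23933773 to 23934156, minus strand) lie head to head, so the stretch between them lies before the start of both. The 250 bases before the annotated start of *Hist1h2aa* in RefSeq, at chr13:23934187-23934436 (GRCm38.p6, plus strand), are shown because both genes had their highest wild-type level in the same cluster. Capitals mark matches on either strand to TATAAA (the TATA box), to CCAAT (the CCAAT box) and to the histone octamer ATTTGCAT.
Hist1h2aa promoter: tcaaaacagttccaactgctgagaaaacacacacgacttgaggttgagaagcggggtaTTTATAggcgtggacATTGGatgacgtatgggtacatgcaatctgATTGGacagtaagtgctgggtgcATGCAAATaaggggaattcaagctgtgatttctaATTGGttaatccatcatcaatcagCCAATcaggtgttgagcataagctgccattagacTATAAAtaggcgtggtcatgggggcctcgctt
The match to TATAAA on the plus strand lay 32 bases before the start of *Hist1h2aa*, and that on the minus strand lay 94 bases before the start of *Hist1h2ba*. The stretch also held 4 matches to CCAAT and 1 to the octamer. A promoter was matched in RefSeq for 58 of the 64 genes. TATAAA was found in 34 of the 58 (58.6%) against 14.2% of 27025 promoters, CCAAT in 50 (86.2% against 37.9%), the octamer in 13 (22.4% against 1.75%) and the cyclic AMP response element TGACGTCA in 4 (6.9% against 1.88%). Each motif was searched on both strands, in windows from 250 bases before to 50 bases after each start. The promoter of *Hist1h1t* held CCAAT and no TATAAA. These are counts of letters, not of bound sites.

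The deposited matrices held 158291903 to 190455307 UMIs per library, and 5644 and 7505 wild-type and 6554 and 6522 *Meioc*-null cells were used. Germ cells of the wild-type pups formed 10 clusters, numbered along their order, and every cell was placed by its nearest neighbours among wild-type cells. The names come from fixed marker genes. Cluster 1 was undifferentiated-spermatogonia-like, clusters 2 to 4 were differentiating-spermatogonia-like, cluster 6 was preleptotene-like (led by *Stra8*), clusters 8 and 9 were early-spermatocyte-like and cluster 10 was pachytene-like. Clusters 5 (led by *Rec8* and *Ctcfl*) and 7 had mixed markers and stayed unnamed. No histone gene was among the variable genes used for clustering. Cluster 10 held 258 and 306 wild-type cells and no *Meioc*-null cell, so it entered no genotype comparison. Any pair of libraries shared 12 to 16 cell barcodes. *Meioc* itself was counted at 653 and 689 CPM in wild-type pups against 693 and 677 CPM in null pups in cluster 6 (CPM is the UMI count of a gene over all UMIs of the cluster in that library, scaled to a common total). The captured 3′ end need not fall in the deletion, so this does not check the labels.

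*Hist1h2ap* (chromosome 13, 21833026 to 21833507, minus strand), *Hist1h1a* (23763666 to 23764406, plus strand), *Hist1h1c* (23738808 to 23740367, plus strand) and *Hist1h1t* (23695814 to 23696725, plus strand) lie in the same large histone cluster as the head-to-head pair (GRCm38, GENCODE vM21). A few genes supplied most of the histone UMIs. *Hist1h2ap*, a canonical H2A gene, held 464281 UMIs or 32.9% of the total over all 64 genes. The germ-line H2A gene *Hist1h2aa* held 204395 (14.5%) and the linker histone gene *Hist1h1a* 203440 (14.4%), followed by the germ-line H2B gene *Hist1h2ba* with 64697 (4.59%). *Hist1h1t* held 14543 UMIs (1.03%). These shares count captured 3′ ends, so they do not rank the genes by the size of their messenger RNA pools. Sequence identity limits the assignment further: 24 genes shared more than 50% of their 90-base windows with another annotated gene, 6 shared none, and 23 overlapped another annotated gene. For *Hist1h2ap* the shared part was 92.4%, so reads from that part fit more than 1 gene and its value is uncertain. The same holds for the H2A gene *Hist2h2aa1* (88.5%), whose course is described below. Among the genes whose genotype calls are described below, the same holds for those that shared more than 50%: *Hist1h2an* (83.9%), *Hist1h4n* (81.2%), *Hist1h3i* (72.7%), *Hist1h2bk* (71.6%), *Hist1h2bn* (60.6%), *Hist1h3b* (57.4%), *Hist1h2ab* (53.6%) and *Hist1h3e* (50.2%). It also holds for *Hist2h3c1* (100%), *Hist1h4k* (65.9%) and *Hist2h3c2* (62%), which are counted below among genes called without the block. *Hist1h2aa*, *Hist1h1a* and *Hist1h1t* were among the 6 that shared none, although *Hist1h2aa* overlaps an annotated non-histone gene, Gm44344.

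The histone genes were higher in batch 2 than in batch 1 in both genotypes. Their share of all UMIs was 0.171% and 0.192% in the wild-type and *Meioc*-null libraries of batch 1, and 0.34% and 0.324% in those of batch 2. In cluster 4, 48 of the 54 genes tested were higher in batch 2 in both genotypes, against 15.7% of all 11936 genes tested there. In cluster 6 the count was 45 of 48, against 14.4%. The median difference of the histone genes between batches was 1.03 on the log2 scale in cluster 4 and 0.92 in cluster 6, while the median over all genes was within 0.02 of 0. In cluster 4, for example, *Hist1h2ap* stood at 949 and 4239 CPM in wild-type pups against 658 and 2969.6 CPM in null pups. The libraries of replicate 2 in both genotypes lay above both replicate 1 libraries. *Hist1h1b*, a linker histone gene, did not follow, at 38.0 and 40.0 CPM in wild-type pups against 42.9 and 40.4 CPM in null pups in cluster 1. Litter, batch and library cannot be told apart here. Counts of histone genes called are therefore given both without and with the littermate pair as a block.

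Summed over the 61 canonical genes, the wild-type level had 2 high points along germ-cell development. It was 594 and 1332 CPM in cluster 1, 2646 and 7236 CPM in cluster 4, 1150.3 and 3140.4 CPM in cluster 5 and 3918 and 7725 CPM in cluster 6 (replicates 1 and 2). It was lower again in cluster 7, at 1474 and 2123 CPM, and reached 489.5 and 763 CPM in cluster 9 and 253 and 516 CPM in cluster 10. The dip in unnamed cluster 5, between differentiating-spermatogonia-like cluster 4 and preleptotene-like cluster 6, was shared by most genes. In the wild-type libraries 53 and 54 of the 64 were lower in cluster 5 than in both neighbours. In the *Meioc*-null libraries this held for 38 and 32 of the 64. Stage differences are descriptions, because the clusters were formed from the same cells, and no test was made.

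**Figure D1:**
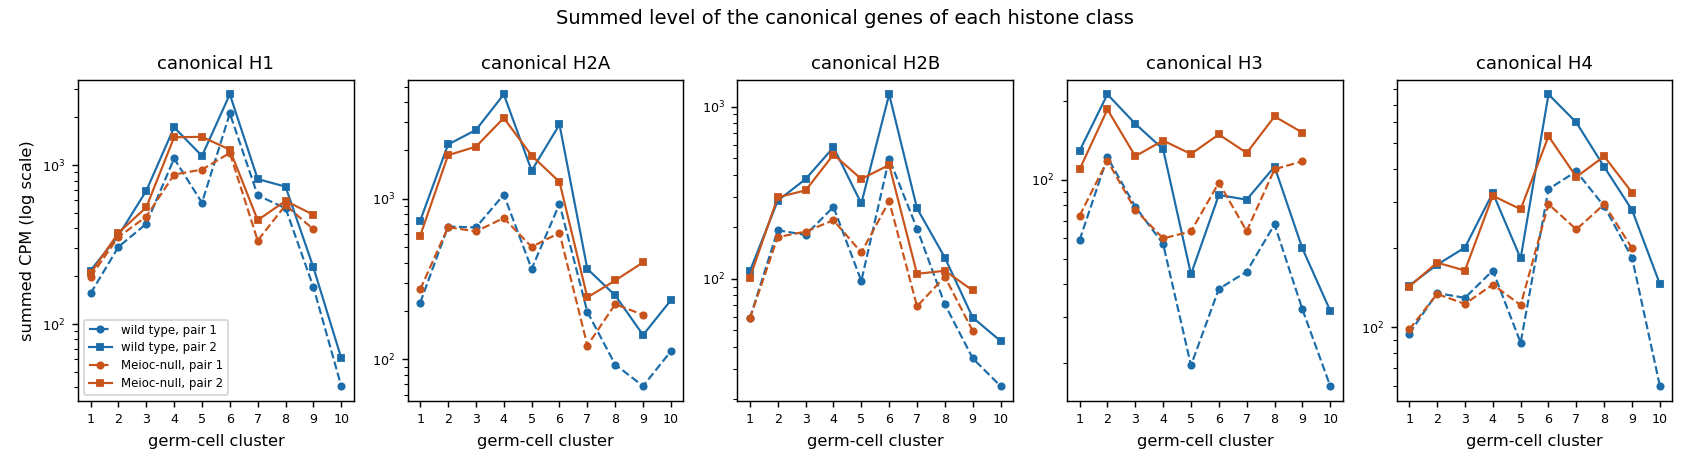
Summed CPM of the canonical genes of each histone class (y axes, log scale) in germ-cell clusters 1 to 10 (x axes), 1 line per library (blue wild type, orange *Meioc*-null, dashed pair 1, solid pair 2). H1, H2A, H2B and H4 have their highest or second-highest wild-type level in cluster 6, while H3 is highest in cluster 2 (122 and 212 CPM) and stands at 38.4 and 87.6 CPM in cluster 6. Cluster 10 has no *Meioc*-null line because it held no *Meioc*-null cell.

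Genes of different histone classes did not share 1 course. In the mean of the wild-type libraries, 28 of the 64 genes had their highest level in the preleptotene-like cluster 6, 22 in an earlier cluster and 14 in a later one. Of the 17 H2B genes 11 had it in cluster 6, of the 12 H4 genes 7, of the 17 H2A genes 7 and of the 6 H1 genes 3. None of the 12 H3 genes did: 9 were highest before cluster 6 and 3 after it. Many H3 genes were low throughout. *Hist1h3c*, *Hist1h3e*, *Hist1h3a*, *Hist1h3f* and *Hist1h3b* had highest cluster means of 23.8 to 90.9 CPM, and the other H3 genes of 0.454 to 3.84 CPM. The highest cluster was the same in both wild-type libraries for 43 genes. For 9 genes the wild-type level in Sertoli-like or peritubular-myoid-like cells was above that in every germ-cell cluster. Among these were the H3 genes *Hist2h3c1* and *Hist2h3c2*, which are among those highest after cluster 6.

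**Figure D2:**
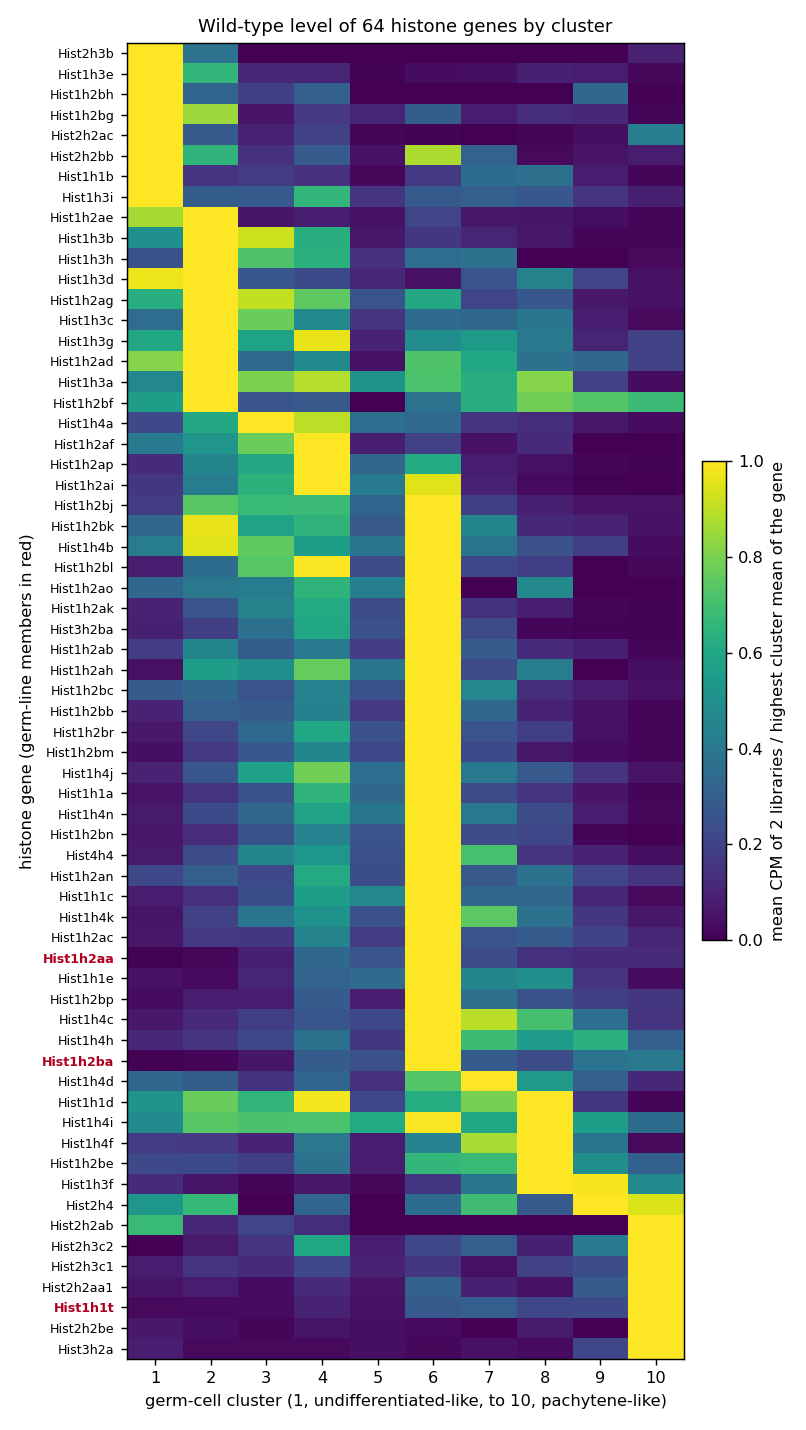
Wild-type level of each of the 64 genes (rows, germ-line members in red) in germ-cell clusters 1 to 10 (columns), as the mean CPM of the 2 wild-type libraries divided by the highest cluster mean of that gene (colour, 0 to 1). Rows are ordered by the cluster of the highest level. The largest block, 28 genes, is brightest in cluster 6, and many of these genes are darker in cluster 5 than in cluster 4.

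Canonical genes gave examples of each course. *Hist1h1b* was highest in undifferentiated-like cluster 1, at 38.0 and 40.0 CPM, and stood at 0.305 and 1.23 CPM in cluster 5. *Hist1h3c*, the H3 gene with the most UMIs, was highest in cluster 2 (64.5 and 117 CPM) and lower in cluster 6 (16.6 and 46.8 CPM). *Hist1h2ap* was highest in cluster 4, at 949 and 4239 CPM. These genes thus had their highest wild-type level in spermatogonial clusters. *Hist1h1a*, in contrast, was highest in cluster 6, at 1462 and 1832 CPM, after 856 and 1283 CPM in cluster 4. The H2B gene *Hist1h2bm* was highest there as well, at 213 and 474 CPM. *Hist1h4d*, an H4 gene, was highest in cluster 7, at 164 and 235 CPM. The H2A gene *Hist2h2aa1*, from the smaller cluster on chromosome 3, was highest in pachytene-like cluster 10, at 38.1 and 134 CPM, after 9.75 and 39.6 CPM in cluster 9.

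The 3 germ-line genes were low in undifferentiated-like cells and became abundant at different points. *Hist1h2aa* was at 14.1 and 23.1 CPM in wild-type cluster 1, 581 and 1188 CPM in cluster 4 and 2032 and 3291 CPM in cluster 6. Its level was 253 and 390.2 CPM in cluster 9 and 179 and 455 CPM in cluster 10. *Hist1h2ba* followed the same order, with 2.01 and 5.45 CPM in cluster 1, 144 and 283 CPM in cluster 4 and 497 and 966 CPM in cluster 6, and was at 175 and 414 CPM in cluster 10. In cluster 10 the 3 germ-line genes together held more of the histone UMIs than the canonical genes, at 555 and 1063 CPM, against 253 and 516 CPM for the 61 others. *Hist1h1t* differed from both. It was at 4.78 and 7.17 CPM in cluster 3 and 42.9 and 68.3 CPM in cluster 6, and was highest in cluster 10, at 201 and 194 CPM.

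**Figure D3:**
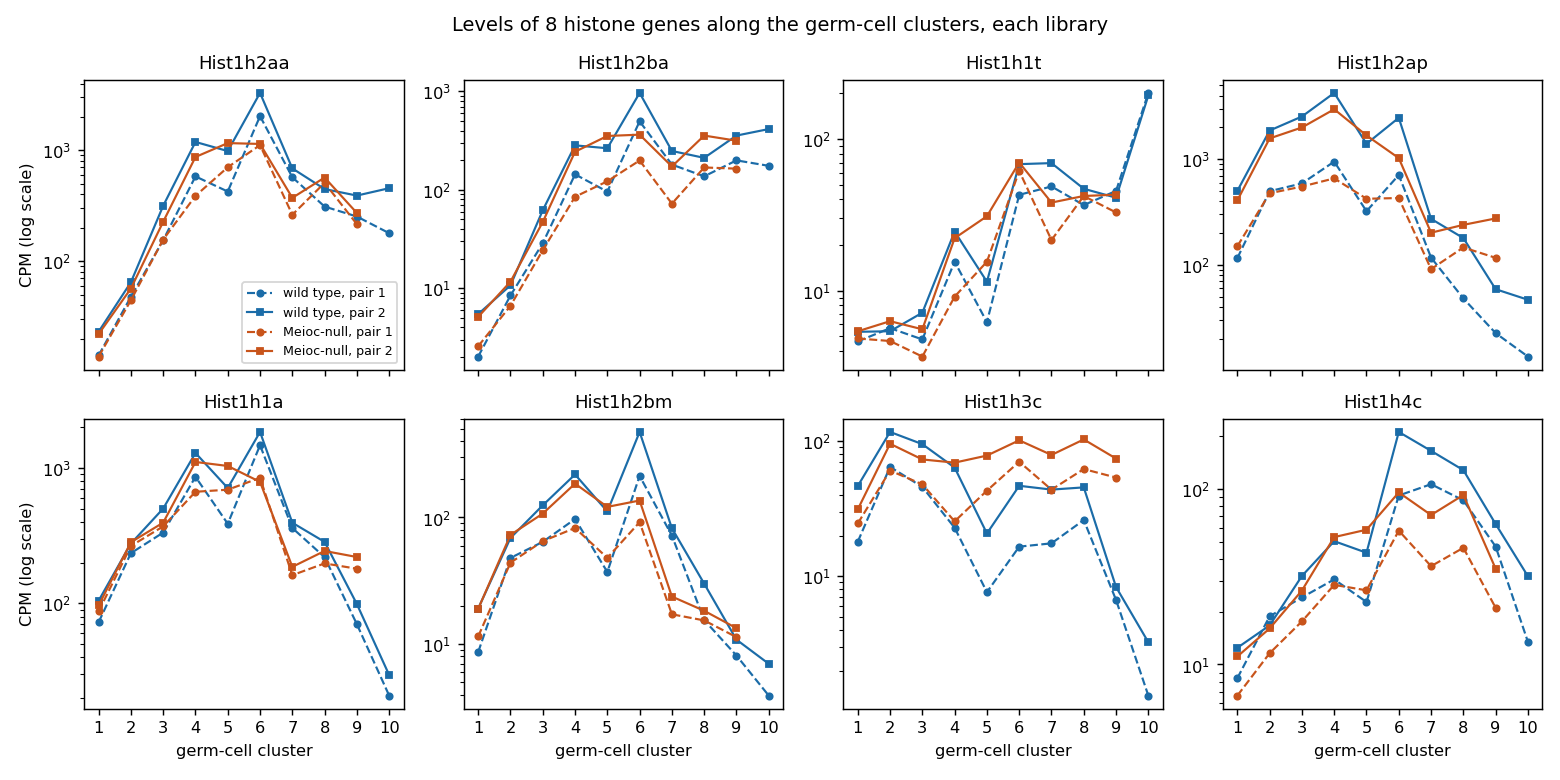
CPM (y axes, log scale) of 8 histone genes in germ-cell clusters 1 to 10 (x axes), 1 line per library as labelled (blue wild type, orange *Meioc*-null, dashed pair 1, solid pair 2). Hist1h2aa, Hist1h2ba, Hist1h1a and Hist1h2bm reach their highest wild-type value in cluster 6, where the *Meioc*-null lines of the same pair are lower. Hist1h3c is low in cluster 9 in wild type (6.68 and 8.32 CPM in cluster 9) but not in *Meioc*-null (53.8 and 74.4 CPM).

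The level in a cell type that should lack a gene was taken as a guide to free RNA. In Sertoli-like cells, which support the germ cells, *Hist1h2aa* stood at 12.2 and 18.9 CPM in wild-type pups against 25.0 and 21.0 CPM in null pups, and in myoid-like cells at 6.39 and 9.76 CPM in wild-type pups against 6.33 and 8.76 CPM in null pups. The wild-type levels of *Hist1h2aa* in cluster 1 were near those of Sertoli-like cells and above those of myoid-like cells. Depth differed, with medians of 26043 and 25894 UMIs per cell in wild-type cluster 1 against 2376.5 and 3583 in Sertoli-like cells. The part of free RNA in the cluster 1 levels was not tested, and they are not read as expression. *Hist1h1t* in Sertoli-like cells was at 3.51 and 6.29 CPM in wild-type pups against 5.71 and 1.85 CPM in null pups, close to its level in clusters 1 to 3.

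The comparison of the genotypes asks in which cluster histone transcripts differed without *Meioc*. All cells were placed among wild-type clusters, so a state found only in *Meioc*-null could form no cluster of its own. The paper describes a mutant-only cluster, primarily of G2/M cells, and where such cells lie here was not tested. Cluster 6 held 12.1 and 8.23% of wild-type against 27.9 and 19.2% of *Meioc*-null germ cells. Cells of 1 cluster thus need not be at a matched stage. A gene was called where edgeR's quasi-likelihood test on the summed counts of the 4 libraries gave a Benjamini-Hochberg adjusted p under 0.05 over all genes tested in the cluster and an absolute log2 fold change (wild type over *Meioc*-null) over 0.1. In clusters 1 to 4 none of the 50, 55, 50 and 54 histone genes tested was called, while 0, 0.0336, 0.0669 and 0% of all genes were called there. At an unadjusted p under 0.05 the numbers were 2, 1, 1 and 0 genes, against 1.48, 1.35, 2.26 and 5.05% of all genes. Leaving out wild-type replicate 1 gave 9 calls in cluster 4, all higher in wild type, against 0.553% of all genes. With the littermate pair as a block, 0 of the histone genes were called in cluster 1, against 0.343% of all genes. The block leaves 1 residual degree of freedom, so its p-values rest mostly on the spread that edgeR shares across genes. In cluster 2 the block called 1, *Hist1h1b*, higher in *Meioc*-null, against 0.303% of all genes in that direction. In clusters 3 and 4 it called 6 each, all higher in wild type, against 0.878 and 0.796%. Both sets of 6 held *Hist1h2aa* and *Hist1h2ap*. In cluster 4, *Hist1h2aa* stood at 581 and 1188 CPM in wild-type pups against 388 and 869.7 CPM in null pups, a blocked log2 fold change of 0.56 with adjusted p = 0.000344, so wild type was the higher within each pair while the genotypes overlapped across batches.

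In cluster 5, none of the 42 histone genes tested was called without the block (0 at an unadjusted p under 0.05, against 12% of all genes), against 1.42% of all genes. With the block, 20 were called, all higher in *Meioc*-null, against 7.1% of all genes called in that direction. In both littermate pairs 34 of the 42 were higher in *Meioc*-null and 0 were higher in wild type, against 37.5 and 27.2% of all genes. *Hist1h3c* stood at 7.63 and 20.8 CPM in wild-type pups against 43.0 and 78.3 CPM in null pups. Its blocked log2 fold change was -2.12 with adjusted p = 4.66e-66 (edgeR). *Hist1h1a* stood at 386 and 707 CPM in wild-type pups against 688 and 1029 CPM in null pups, and the *Meioc*-null value was the higher in each pair. The S phase list, genes of DNA replication without any histone, was at 4522 and 4611 CPM in wild-type pups against 5185 and 5013 CPM in null pups in the same cells. The preleptotene markers are *Stra8*, *Meioc*, *Gm4969* and *Rec8*, so their sum holds the gene that is null here. They were at 1254 and 1504 CPM in wild-type pups against 1858 and 1905 CPM in null pups. Early-spermatocyte markers were at 2043 and 1839 CPM in wild-type pups against 1615 and 1589 CPM in null pups. Their part in the result was not tested.

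In preleptotene-like cluster 6 the direction was the opposite. Of 48 histone genes tested, 7 were called higher in wild type, against 7.19% of all genes, and 1 was called higher in *Meioc*-null, against 9.78%. With the block, 30 were higher in wild type, while 5 were higher in *Meioc*-null, against 17.3 and 19% of all genes. In both littermate pairs 35 of the 48 were higher in wild type, while 9 were higher in *Meioc*-null, against 31.6 and 46.1% of all genes. The median log2 fold change over the 48 genes was 0.76, and over all genes tested it was within 0.03 of 0. By class, 3 of the 6 H1 genes, 1 of 13 H2A genes, 1 of 13 H2B genes and 2 of 10 H4 genes were called higher in wild type. Of the 6 H3 genes tested, 1 was called, higher in *Meioc*-null. Their median log2 fold change was -0.89, and *Hist1h3a* and *Hist1h3f* were on the other side of 0, at 0.18 and 0.10.

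*Hist1h2aa* stood at 2032 and 3291 CPM in wild-type pups against 1113 and 1140.4 CPM in null pups in cluster 6. Both wild-type libraries lay above both *Meioc*-null libraries, and the fit gave a log2 fold change of 1.32 (adjusted p = 0.00664, SE 0.275). *Hist1h1a*, at 1462 and 1832 CPM in wild-type pups against 841 and 786 CPM in null pups, had a log2 fold change of 1.09 (adjusted p = 0.00473, SE 0.215). Again the genotypes did not overlap. The linker histone genes *Hist1h1e* (412 and 601 CPM in wild-type pups against 208 and 281 CPM in null pups) and *Hist1h1c* (229 and 330.1 CPM in wild-type pups against 130.1 and 163 CPM in null pups) gave log2 fold changes of 1.11 (adjusted p = 0.0324) and 1.00 (adjusted p = 0.0409). The other genes called higher in wild type were the H4 genes *Hist1h4n*, at 1.46 (adjusted p = 0.0387, SE 0.379), and *Hist1h4i*, at 0.91 (adjusted p = 0.0298, SE 0.24), and the H2B gene *Hist1h2bk*, at 1.10 (adjusted p = 0.0415, SE 0.336). Leaving out wild-type replicate 2 ended all 7 of these calls, against 3.77% of all genes called higher in wild type, with log2 fold changes of 0.85 for *Hist1h2aa* (adjusted p = 0.137) and 0.85 for *Hist1h1a* (adjusted p = 0.0964), and leaving out wild-type replicate 1 raised the count to 18, against 4.12%. *Hist1h2ba* stood at 497 and 966 CPM in wild-type pups against 199 and 363 CPM in null pups, giving a log2 fold change of 1.44 (adjusted p = 0.266, SE 0.629) without the block and 1.43 with adjusted p = 2.16e-09 with it. It was higher in wild type within each pair and the genotypes did not overlap. *Hist1h2ap* stood at 709 and 2466 CPM in wild-type pups against 429 and 1024 CPM in null pups, giving a log2 fold change of 1.19 (adjusted p = 0.575, SE 1.08) without the block and 1.07 with adjusted p = 4.87e-06 with it. For this gene the genotypes overlapped across batches. Leaving out wild-type replicate 2, which leaves batch 1 alone in wild type, turned the unblocked value to -0.069. *Hist1h1t*, at 42.9 and 68.3 CPM in wild-type pups against 61.5 and 70.0 CPM in null pups, had a log2 fold change of -0.17 (adjusted p = 0.72, SE 0.272), and the genotypes overlapped.

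Among the H3 genes of cluster 6, *Hist1h3c* stood at 16.6 and 46.8 CPM in wild-type pups against 70.5 and 102 CPM in null pups. Its log2 fold change was -1.38 (adjusted p = 0.396, SE 0.771) without the block and -1.46 with adjusted p = 0.00561 with it. *Hist1h3e* was called at -1.81 (adjusted p = 0.0353, SE 0.531), from 4 and 6 UMIs in wild-type pups against 44 and 45 in null pups. It reached the 40 UMIs needed for a test only through the *Meioc*-null libraries, where it is high. Leaving out wild-type replicate 1, wild-type replicate 2 or *Meioc*-null replicate 2 ended its call (adjusted p = 0.237, 0.0792 and 0.0894). The summed canonical H3 genes were at 38.4 and 87.6 CPM in wild-type pups against 97.6 and 149 CPM in null pups in cluster 6, while the summed canonical H2B genes were at 498 and 1178 CPM in wild-type pups against 282 and 458 CPM in null pups.

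**Figure D4:**
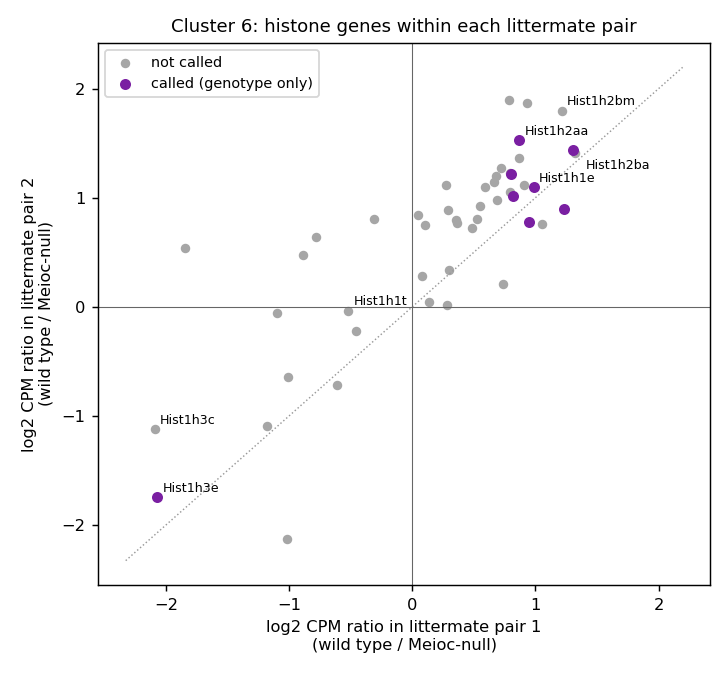
Each of the 48 histone genes tested in cluster 6 by its log2 CPM ratio of wild type over *Meioc*-null in littermate pair 1 (x axis) and pair 2 (y axis), with called genes in purple and the line of equal ratios dotted. The 35 genes in the upper right quadrant were higher in wild type in both pairs, and the 9 in the lower left quadrant, among them Hist1h3c, Hist1h3e and Hist1h1t, were higher in *Meioc*-null in both.

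Cell-cycle transcripts moved with genotype in cluster 6. The G2/M list of 53 genes summed to 9410.2 and 9914 CPM in wild-type pups against 15062 and 15845 CPM in null pups, and 39 of the 52 tested were called higher in *Meioc*-null and 0 higher in wild type (46 and 0 with the block). The S phase list was at 6614 and 6287 CPM in wild-type pups against 6282 and 5824 CPM in null pups. Preleptotene markers were at 3238 and 3148 CPM in wild-type pups against 3344 and 3231 CPM in null pups. Restricted to cells with an S phase call (407 of 520 and 305 of 496 in wild type, 445 of 1421 and 194 of 946 in *Meioc*-null), none of the 43 histone genes tested was called, while 19.8% of all genes were. In those cells *Hist1h2aa* stood at 2077 and 3485 CPM in wild-type pups against 2058 and 2859 CPM in null pups, giving a log2 fold change of 0.26 (edgeR, adjusted p = 0.565). In the remaining cells its level was 1848 and 2936 CPM in wild-type pups against 635 and 669.6 CPM in null pups. For *Hist1h1a* the values were 1539 and 2066 CPM in wild-type pups against 1605 and 2019 CPM in null pups in S phase cells and 1147 and 1404 CPM in wild-type pups against 455 and 448 CPM in null pups in the others. Higher in wild type in both littermate pairs were 10 of the 43 histone genes tested among S phase cells, against 29.2% of all genes, and 36 of 44 among the rest, against 27.8%. Both wild-type libraries lay above both *Meioc*-null libraries for 1 of the 43 among S phase cells, against 21.1% of all genes, and for 29 of the 44 among the rest, against 20.7%. The 1 gene in S phase cells was *Hist1h1e*, at 433 and 659.8 CPM in wild-type pups against 262 and 427 CPM in null pups. *Hist1h2ba*, at 515 and 1002 CPM in wild-type pups against 353 and 871 CPM in null pups in S phase cells, was higher in wild type in each pair, with overlap across batches. *Hist1h3c* was higher in *Meioc*-null in both parts, at 18.4 and 49.8 CPM in wild-type pups against 110.1 and 165 CPM in null pups in S phase cells. Other genes were higher in *Meioc*-null within each pair in S phase cells but not in the rest. There *Hist1h2ab* stood at 105 and 175 CPM in S phase cells of wild-type pups against 154 and 270 CPM in null pups. *Hist1h2bb* stood at 52.8 and 147 CPM in S phase cells of wild-type pups against 64.8 and 182 CPM in null pups. The 10 genes counted above went the other way. The cells of the cluster had median depths of 10978 and 10333.5 UMIs in the wild-type libraries against 11206 and 12618 in the null ones, and the phase calls were not made at a common depth. A phase call sets the S phase list against the G2/M list, which itself differed by genotype here. In wild type, 69.3 and 71.4% of cells were called S phase in cluster 5, where histone levels dipped. All cells of pachytene-like cluster 10 were called G2/M. The S phase cells and the rest thus need not be matched between the genotypes. The part of the number of S phase cells in the result was not tested. The difference between the parts was not tested, and free RNA can enter the phase calls.

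In cluster 7, 13 of 38 histone genes tested were called higher in wild type, against 14.7% of all genes, and none higher in *Meioc*-null, against 17%. With the block the counts were 27 and 1, against 22.6 and 24.5%. The median log2 fold change over the 38 genes was 1.03. The 13 comprised 3 of 6 H1 genes, 3 of 8 H2A genes, 5 of 11 H2B genes and 2 of 9 H4 genes, and 0 of 4 H3 genes. For 5 of the 13, only the wild-type libraries reached the 40 UMIs needed for a test, while the *Meioc*-null libraries together held fewer. *Hist3h2ba*, *Hist1h1b* and *Hist1h2an* are among these 5, which could be tested only because they are high in wild type. *Hist1h2bm* stood at 71.9 and 82.3 CPM in wild-type pups against 17.2 and 23.7 CPM in null pups, a log2 fold change of 2.03 (adjusted p = 2.83e-07, SE 0.196). *Hist1h2ab* stood at 46.2 and 43.1 CPM in wild-type pups against 9.38 and 12 CPM in null pups, a log2 fold change of 2.16 (adjusted p = 4.2e-07, SE 0.228). Both wild-type libraries lay far above both *Meioc*-null libraries for these genes. The H2B gene *Hist3h2ba* differed by 2.45 (adjusted p = 8.87e-05), at 15.7 and 13.7 CPM in wild-type pups against 2.50 and 3.22 CPM in null pups. *Hist1h2aa*, at 571 and 686 CPM in wild-type pups against 262 and 372 CPM in null pups, and *Hist1h1a*, at 359 and 393 CPM in wild-type pups against 161 and 186 CPM in null pups, remained higher in wild type, with log2 fold changes of 1.10 (adjusted p = 0.0012) and 1.23 (adjusted p = 1.46e-06). *Hist1h1t*, at 48.7 and 69.4 CPM in wild-type pups against 21.6 and 38.1 CPM in null pups, narrowly missed the threshold at 1.11 (adjusted p = 0.0528, SE 0.34) and passed it with the block, at 1.10 with adjusted p = 5.46e-12. *Hist1h1b*, at 14.7 and 12.9 CPM in wild-type pups against 5.63 and 5.57 CPM in null pups, had a log2 fold change of 1.40 (adjusted p = 0.0045, SE 0.354), and the H2B gene *Hist1h2bb*, at 30.8 and 45.9 CPM in wild-type pups against 6.26 and 14.1 CPM in null pups, one of 2.03 (adjusted p = 0.00321, SE 0.374). In a coarser clustering, where clusters 6 and 7 fell into 1 cluster, 4 genes were called, against 15.1% of all genes. Leaving out wild-type replicate 1 or *Meioc*-null replicate 2 gave 21 and 24, against 24.3 and 30.5%. The G2/M list stood at 13511 and 14151 CPM in wild-type pups against 18869 and 18539 CPM in null pups, and the S phase list at 6160.2 and 6236 CPM in wild-type pups against 5561 and 5503 CPM in null pups. Preleptotene markers were at 1489 and 1437 CPM in wild-type pups against 2584 and 2691 CPM in null pups, and early-spermatocyte markers at 4950.1 and 4734 CPM in wild-type pups against 5841 and 5579.6 CPM in null pups. Their part in the result was not tested.

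In early-spermatocyte-like cluster 8 the histone genes were split. Of 37 tested, 3 were called higher in wild type, while 10 were higher in *Meioc*-null, against 20.6 and 23.5% of all genes. Of the 10, 6 had under 40 UMIs in wild type, and 1 of the 3 reached 40 UMIs only in the wild-type libraries. The share called was below that of all genes in wild type and near it in *Meioc*-null. With the block the counts were 7 and 13, against 24.4 and 26.5%. *Hist1h2aa* was now higher in *Meioc*-null, at 311 and 447 CPM in wild-type pups against 508 and 568 CPM in null pups, a log2 fold change of -0.50 (adjusted p = 0.0133, SE 0.169). *Hist1h4d* stood at 95.8 and 119.8 CPM in wild-type pups against 140.2 and 197 CPM in null pups, a log2 fold change of -0.64 (adjusted p = 0.0483, SE 0.22). The H2B gene *Hist1h2be* was higher in wild type, at 12.6 and 23.3 CPM in wild-type pups against 4.45 and 9.17 CPM in null pups, a log2 fold change of 1.45 (adjusted p = 0.00139, SE 0.342). *Hist1h2bc* had a log2 fold change of -2.09 (adjusted p = 0.000358, SE 0.436), from 5 and 26 UMIs in wild-type pups against 63 and 25 in null pups. One *Meioc*-null library weighed on this value, which was -1.19 (adjusted p = 0.0411) without *Meioc*-null replicate 1. The H4 gene *Hist4h4*, which lies on chromosome 6, stood at 3.26 and 2.20 CPM in wild-type pups against 8.21 and 7.45 CPM in null pups, a log2 fold change of -1.60 (adjusted p = 0.0024, SE 0.451). DESeq2 called 3 of the 37 genes, 1 of them higher in wild type, the other 2 in *Meioc*-null, against 26% of all genes. Leaving out wild-type replicate 1 or *Meioc*-null replicate 2 ended the call of *Hist1h2aa*, at -0.24 and -0.35 (adjusted p = 0.421 and 0.111). The G2/M list stood at 11794 and 11764 CPM in wild-type pups against 15651 and 15483 CPM in null pups, with 29 of 52 genes called higher in *Meioc*-null, and the S phase list at 4886 and 5146 CPM in wild-type pups against 5420.5 and 5212 CPM in null pups. Preleptotene markers moved with genotype here, at 608 and 606 CPM in wild-type pups against 2034 and 1976 CPM in null pups. *Meioc*, which is among them, was at 495 and 487 CPM in wild-type pups against 852 and 884 CPM in null pups. Differentiating-spermatogonia markers also moved, at 218 and 205 CPM in wild-type pups against 492 and 499.7 CPM in null pups. The part of these markers in the result was not tested.

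In cluster 9, the last cluster with cells of both genotypes, 19 of 40 histone genes were called higher in *Meioc*-null and 2 higher in wild type, against 29.8 and 28.6% of all genes. With the block the counts were 22 and 7, against 33.7 and 32.8%. The median log2 fold change over the 40 genes was -1.0. Of the 8 H3 genes tested, 7 were called higher in *Meioc*-null, with a class median of -2.05, and so were 5 of the 6 H1 genes. The remaining calls in that direction were 2 of 8 H2A genes, 2 of 9 H2B genes and 3 of 9 H4 genes. Of the 19, 9 genes, 5 of them H3 genes, had under 40 UMIs in the wild-type libraries together and so met the minimum for a test only with the *Meioc*-null UMIs. Among the 29 genes with at least 40 UMIs in wild type, 10 were called higher in *Meioc*-null, against 27.6% of the 9962 genes with as many there, so that much of the excess over all genes lay in genes admitted through the *Meioc*-null libraries.

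*Hist1h3c* stood at 6.68 and 8.32 CPM in wild-type pups against 53.8 and 74.4 CPM in null pups in cluster 9, a log2 fold change of -2.99 (adjusted p = 4.06e-11, SE 0.201). *Hist1h1b*, at 2.89 and 3.36 CPM in wild-type pups against 28.2 and 29.1 CPM in null pups, had a log2 fold change of -3.07 (adjusted p = 4.24e-10, SE 0.256). In both genes the *Meioc*-null libraries were near each other and far above wild type. For reference, wild-type *Hist1h3c* was at 45.9 and 95.2 CPM in cluster 3 and wild-type *Hist1h1b* at 38.0 and 40.0 CPM in cluster 1. The H3 gene *Hist1h3b* had a log2 fold change of -3.97 (adjusted p = 1.38e-06, SE 0.551), from 3 and 4 UMIs in wild-type pups against 11 and 34 in null pups. It reached the minimum of 40 UMIs for a test through the *Meioc*-null libraries alone, and such a gene could only be tested because it is high there. *Hist1h1a* stood at 70.2 and 98.8 CPM in wild-type pups against 180.0 and 219.6 CPM in null pups and *Hist1h1e* at 70.2 and 81.6 CPM in wild-type pups against 116 and 147 CPM in null pups, with log2 fold changes of -1.14 (adjusted p = 0.0036) and -0.72 (adjusted p = 0.000191). The linker histone gene *Hist1h1c*, at 25.6 and 38.3 CPM in wild-type pups against 62.7 and 78.3 CPM in null pups, had a log2 fold change of -1.03 (adjusted p = 0.00276, SE 0.219). The H2B gene *Hist1h2bn*, at 0.722 and 0.757 CPM in wild-type pups against 4.21 and 11.8 CPM in null pups, had one of -3.39 (adjusted p = 6.08e-06, SE 0.513), and the H3 gene *Hist1h3i* one of -3.25 (adjusted p = 7.14e-06, SE 0.506). These 2 genes also had under 40 UMIs in wild type and were tested only with the *Meioc*-null UMIs. *Hist1h4d*, at 54.1 and 66.4 CPM in wild-type pups against 112 and 173 CPM in null pups, had a log2 fold change of -1.17 (adjusted p = 0.0227, SE 0.284).

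*Hist1h2ap* stood at 22.6 and 58.8 CPM in wild-type pups against 116 and 275 CPM in null pups in cluster 9, and its log2 fold change of -2.13 (adjusted p = 0.175, SE 0.884) passed only with the block, at -2.18 with adjusted p = 1.41e-107. The exceptions in the other direction were *Hist1h4c*, an H4 gene, at 46.9 and 63.1 CPM in wild-type pups against 21.0 and 35.1 CPM in null pups and a log2 fold change of 1.02 (adjusted p = 0.0163, SE 0.277), and *Hist1h2be*, at 1.06 (adjusted p = 0.0455). Leaving out wild-type replicate 2 or *Meioc*-null replicate 1 ended the call of *Hist1h2be*, at 0.20 and 0.82 (adjusted p = 0.753 and 0.0686). *Hist1h2be* also met the 40 UMIs needed for a test only with the wild-type UMIs. None of the 3 germ-line genes was called higher in *Meioc*-null. *Hist1h2aa* was at 253 and 390.2 CPM in wild-type pups against 215 and 272 CPM in null pups, giving a log2 fold change of 0.49 (adjusted p = 0.219, SE 0.291) and, with the block, 0.48 with adjusted p = 2.97e-10. *Hist1h2ba* was at 199 and 356 CPM in wild-type pups against 164 and 315 CPM in null pups and *Hist1h1t* at 45.5 and 41.0 CPM in wild-type pups against 32.8 and 43.0 CPM in null pups, and neither was called without the block. With it, *Hist1h2ba* was called higher in wild type, at 0.30 with adjusted p = 0.000155, and *Hist1h1t* stayed uncalled. Summed, the canonical genes were at 489.5 and 763 CPM in wild-type pups against 951 and 1451 CPM in null pups, and the 3 germ-line genes at 497 and 787 CPM in wild-type pups against 412 and 630.1 CPM in null pups.

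Calls across clusters 6 to 9 are counted here without the block. Of the 41 histone genes tested in at least 2 of these clusters, 18 were called in at least 2, which is 43.9%. The share over all 10791 genes tested so was the same (43.9%). For 9 of the 18 the direction was the same at each call, and for the other 9 it turned. Opposite calls thus came in 22% of the 41 histone genes, against 7.82% of all genes, and the difference was not tested. Some of these calls came from genes that met the 40 UMIs needed for a test only with the UMIs of the genotype where they are high. Such calls include *Hist1h1b* in cluster 7, *Hist4h4* in cluster 8 and *Hist1h4n* in cluster 9. *Hist1h2be*, *Hist1h4i* and the H2A gene *Hist1h2an* were called higher in wild type each time. In clusters 7 and 8 *Hist1h2an*, and in cluster 9 *Hist1h2be*, met the minimum for a test only with the wild-type UMIs. The shared direction of these 2 genes is given as a description. *Hist1h2an* stood at 5.73 and 8.25 CPM in wild-type pups against 3.44 and 2.64 CPM in null pups in cluster 7, a log2 fold change of 1.34 (adjusted p = 0.0375, SE 0.48), and gave 1.01 (adjusted p = 0.0254, SE 0.383) in cluster 8. *Hist1h4i* gave 0.51 (adjusted p = 0.0206, SE 0.188) in cluster 8. The 6 genes called higher in *Meioc*-null each time were the H3 genes *Hist1h3b* and *Hist1h3e*, the H4 genes *Hist1h4a* and *Hist1h4d*, *Hist1h2ae* and *Hist1h2bc*. With the block, *Hist1h4d* and *Hist1h2bc* were called higher in wild type in cluster 7, so their direction turned in that fit. In clusters 8 and 9, *Hist1h3b*, *Hist1h3e*, *Hist1h4a* and *Hist1h2bc* had under 40 UMIs in wild type, so they met the minimum for a test only with the *Meioc*-null UMIs and their shared direction is given as a description. *Hist1h2ae*, whose 3′ end carries a polyadenylation signal, stood at 3.61 and 4.96 CPM in wild-type pups against 13 and 17.6 CPM in null pups in cluster 9, a log2 fold change of -1.72 (adjusted p = 2.5e-05, SE 0.295). *Hist1h4a*, at 1.44 and 1.09 CPM in wild-type pups against 5.47 and 5.76 CPM in null pups there, had one of -2.10 (adjusted p = 0.000315, SE 0.45). Both genes had lower wild-type than *Meioc*-null levels in each pair. Among the genes that turned, the linker histone gene *Hist1h1d* was at 11.8 and 24.0 CPM in wild-type pups against 5.63 and 9.67 CPM in null pups in cluster 7 and 1.99 and 5.13 CPM in wild-type pups against 7.15 and 12.8 CPM in null pups in cluster 9, with log2 fold changes of 1.36 (adjusted p = 0.0163) and -1.32 (adjusted p = 0.0108). *Hist1h4n* turned from 1.46 (adjusted p = 0.0387) in cluster 6 to -1.18 (adjusted p = 0.0297) in cluster 9. Leaving out 1 library ended 1 or both calls of *Hist1h1d*, *Hist1h4n*, *Hist1h2an*, *Hist1h4i*, *Hist1h4a* and *Hist1h2ae* in at least 1 case.

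Of the genes with many UMIs, *Hist1h2bj* was called in 1 cluster and *Hist1h4h* in none without the block. With the block, *Hist1h2bj* was called higher in *Meioc*-null in clusters 5 and 8 and higher in wild type in cluster 6. The block called *Hist1h4h* higher in *Meioc*-null in cluster 5 and higher in wild type in clusters 6, 7 and 9. The H2B gene *Hist1h2bj* stood at 8.56 and 10.5 CPM in wild-type pups against 15.4 and 18.9 CPM in null pups in cluster 8, a log2 fold change of -0.81 (adjusted p = 0.0107, SE 0.269). The H4 gene *Hist1h4h* stood at 64.5 and 205 CPM in wild-type pups against 60.1 and 122 CPM in null pups in cluster 6, and its log2 fold change of 0.64 (adjusted p = 0.752, SE 1.00) missed the threshold without the block, while the block gave 0.53 with adjusted p = 0.00963.

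Other transcripts moved with genotype in cluster 9. The S phase list stood at 1925 and 1777 CPM in wild-type pups against 3397 and 3109 CPM in null pups, with 25 of 38 genes called higher in *Meioc*-null, and the G2/M list at 12494 and 12528 CPM in wild-type pups against 18327 and 18068 CPM in null pups, with 36 of 52. Differentiating-spermatogonia markers were at 243 and 224 CPM in wild-type pups against 985 and 869 CPM in null pups. Preleptotene markers were at 467 and 498 CPM in wild-type pups against 1116 and 1141 CPM in null pups. Of these, *Meioc* alone was at 449 and 481 CPM in wild-type pups against 570 and 629 CPM in null pups. Pachytene markers were at 905 and 795 CPM in wild-type pups against 256 and 271 CPM in null pups. Their part in the histone differences was not tested. The cluster held 337 and 816 wild-type and 153 and 215 *Meioc*-null cells.

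In Sertoli-like and myoid-like cells, where *Meioc* stood at 16.9 and 20.5 CPM in wild-type pups against 31 and 17.3 CPM in null pups and 11.8 and 5.94 CPM in wild-type pups against 9.43 and 4.84 CPM in null pups, 0 of 36 and 0 of 38 histone genes were called, against 0.0169 and 0.111% of all genes without the block and 0.186 and 0.452% with it (edgeR, 2 genes each at an unadjusted p under 0.05 without the block, against 4.24 and 2.58% of all genes). Leaving out *Meioc*-null replicate 1 gave 9 calls higher in *Meioc*-null in Sertoli-like cells, against 4.75% of all genes. Markers of other cells differed in the remaining *Meioc*-null library: in Sertoli-like cells the macrophage markers were at 2.34 and 18.5 CPM in wild-type pups against 22.3 and 998 CPM in null pups, and the endothelial markers at 30.8 and 6.49 CPM in wild-type pups against 7.89 and 187 CPM in null pups, and their part in these calls was not tested. *Hist1h1e* stood at 39.8 and 59.2 CPM in wild-type pups against 48.1 and 79.6 CPM in null pups in Sertoli-like cells.

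**Figure D5:**
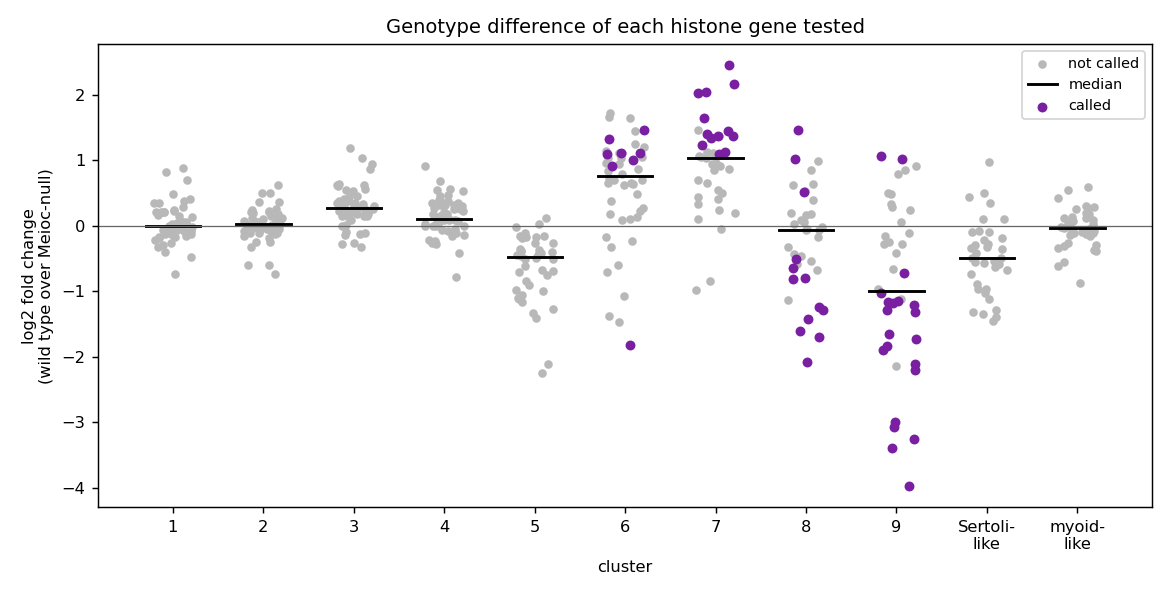
Log2 fold change (y axis, wild type over *Meioc*-null, genotype-only fit) of every histone gene tested in germ-cell clusters 1 to 9 and in Sertoli-like and myoid-like cells (x axis), 1 point per gene, purple where called, with the median as a bar. The medians are 0.76 and 1.03 in clusters 6 and 7 and -1.0 in cluster 9, and no point is called in clusters 1 to 5 or in the somatic cells.

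Genes for the proteins that make and handle histone messages were called in both directions. Of 14 genes for the transcription and 3′ processing of histone messages, none was called in clusters 1 to 5. In clusters 6 to 9 the numbers higher in wild type were 1, 3, 4 and 5, and those higher in *Meioc*-null 1, 1, 3 and 5. With the block they were 3, 4, 4 and 6, and 2, 3, 4 and 5. Over all genes the shares called in these clusters were 7.19, 14.7, 20.6 and 28.6% in the first direction and 9.78, 17, 23.5 and 29.8% in the other without the block, and 17.3, 22.6, 24.4 and 32.8% and 19, 24.5, 26.5 and 33.7% with it. *Npat*, which activates histone genes at S phase, was at 32.1 and 35.2 CPM in wild-type pups against 95.5 and 93.5 CPM in null pups in cluster 9, a log2 fold change of -1.39 (adjusted p = 2.35e-09, SE 0.128). *Lsm11*, a subunit of the U7 particle that cuts the 3′ end, was at 15.5 and 16.1 CPM in wild-type pups against 3.76 and 3.72 CPM in null pups in cluster 8, a log2 fold change of 2.07 (adjusted p = 4.08e-07, SE 0.339). *Eri1*, an exonuclease that trims and degrades histone messages, was at 64.3 and 56.0 CPM in wild-type pups against 143 and 127 CPM in null pups in cluster 9, a log2 fold change of -1.09 (adjusted p = 1.75e-08, SE 0.113). The helicase *Upf1*, needed for histone message decay, was at 125 and 101 CPM in wild-type pups against 59.7 and 57.4 CPM in null pups, a log2 fold change of 1.02 (adjusted p = 1.69e-07, SE 0.123). In cluster 9 *Npat* and *Eri1* were thus higher in *Meioc*-null, and *Upf1* was higher in wild type.

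Of 17 histone chaperone genes, 1, 7, 4 and 8 were called higher in wild type along clusters 6 to 9, while 1, 3, 2 and 3 were higher in *Meioc*-null. The block gave 5, 8, 5 and 9, and 3, 3, 5 and 3, to be read against the same shares of all genes. *Atrx*, which with DAXX deposits the H3.3 variant, was at 28.7 and 36.9 CPM in wild-type pups against 154 and 146 CPM in null pups in cluster 9, a log2 fold change of -2.08 (adjusted p = 4.96e-12, SE 0.133). *Rbbp7*, a histone-binding subunit of several chromatin complexes, gave log2 fold changes of 0.74 (adjusted p = 0.0001, SE 0.122) in cluster 7 and -0.92 (adjusted p = 1.6e-07, SE 0.11) in cluster 9, and so was called in opposite directions. Among the 10 or 11 replication-independent variant genes tested, 3, 2, 4 and 4 were called higher in wild type along clusters 6 to 9, while 1, 2, 3 and 1 were higher in *Meioc*-null. The block gave 4, 4, 4 and 5, and 2, 2, 3 and 1. The centromeric H3 gene *Cenpa* stood at 31.6 and 20.9 CPM in wild-type pups against 191 and 207 CPM in null pups in cluster 6, a log2 fold change of -2.86 (adjusted p = 4.18e-06, SE 0.164). *H1fx*, a linker histone gene outside the histone clusters, was at 862 and 577 CPM in wild-type pups against 196 and 151 CPM in null pups in cluster 7, a log2 fold change of 2.16 (adjusted p = 4.07e-08, SE 0.171), in the same direction as the clustered H1 genes there.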

How the data were processed

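The deposited UMI counts were made by the authors with Cell Ranger 4.0.0 on its mm10 reference, from 10x Chromium 3′ libraries of 1 testis per pup, with no pooling and no normalization. They were used as deposited. Barcodes with more than 1000 detected genes and under 10% mitochondrial UMIs were kept. Doublets were scored with Scrublet in scanpy 1.11.5 and the top scores removed, at 0.8% per 1000 barcodes. Wild-type germ cells were clustered (Leiden, resolution 0.4, 2000 variable genes without any listed gene), and each cell was given the cluster most frequent among 30 wild-type neighbours. Names came from fixed markers, but the score ratio of 0.8 that separated them was set after the clusters were seen.

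UMIs were summed per library and cluster. Genes with at least 40 UMIs over the 4 libraries were tested, in clusters with at least 50 cells per library, with edgeR 4.0.16 (TMM, robust quasi-likelihood, genotype as the only term, R 4.3.3), and p-values were adjusted by Benjamini-Hochberg over all genes of the cluster. With 2 mice per genotype this fit leaves 2 residual degrees of freedom. Its p-values rest on the spread between these mice, which includes batch, and on spread that edgeR shares across genes. Differences between clusters in the genotype effect were fitted with library as a term. The labels give replicate numbers as batches of littermates, so they pair the libraries. Deviations from the genotype means correlated within pairs over all genes, with r from 0.201 to 0.386 in germ-cell clusters, -0.168 in Sertoli-like and 0.235 in myoid-like cells. Over the histone genes tested, r was 0.231 to 0.663 in germ-cell clusters, 0.117 in Sertoli-like and 0.832 in myoid-like cells.

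The alternatives were DESeq2 1.42.0, its size factors in edgeR, no filter on low counts, a UMI in 25% of cells, the replicate block, leaving out each library, no doublet removal, under 5% mitochondrial UMIs, 15 neighbours, at least 8 clusters and S phase cells only. Named in full were the germ-line genes, the 12 others with the most UMIs, genes called in at least 2 clusters and the 3 largest calls of each cluster. Of the other lists, up to 4 called genes of the largest change were named. The genes and lists were chosen with earlier results of these data known. Sequences were read from RefSeq (GRCm38.p6) and GENCODE vM21. The edgeR test with genotype as the only term was tried on simulated counts first. The replicate block, DESeq2 and its size factors, the fits leaving out a library and the test between clusters were not.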

Additional observations from a re-analysis of the deposited data

Results flagged for a closer look

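For 9 histone genes the genotype effect (log2 fold change, wild type over *Meioc*-null) had opposite calls in 2 clusters without the block. These are 22% of the 41 histone genes tested in at least 2 of clusters 6 to 9, against 7.82% of all 10791 genes tested so. *Hist4h4* in cluster 8 and *Hist1h4n* in cluster 9 had under 40 UMIs in wild type, and *Hist1h1b* in cluster 7 had under 40 in *Meioc*-null. These genes met the minimum for a test there only with the UMIs of the genotype where they are high. The difference between the clusters was tested with a term of its own in edgeR. The genes and cluster pairs were chosen because their calls were opposite, so the tests do not stand as independent support, and such differences were common: 5618 of 10186 genes differed between clusters 6 and 9, 4402 of 9138 between 7 and 9, 4059 of 9836 between 6 and 8, and 3024 of 9191 between 7 and 8 (adjusted p under 0.05). Between cluster 6 and cluster 9 the effect differed by 2.24 for *Hist1h1a*, 2.04 for *Hist1h1c*, 1.81 for *Hist1h1e* and 2.64 for *Hist1h4n*. All 4 were higher in wild type in the preleptotene-like cluster and higher in *Meioc*-null in the later one. Between cluster 7 and cluster 9 it differed by 2.39 for *Hist1h1a*, 4.48 for *Hist1h1b*, 2.73 for *Hist1h1d* and 3.35 for *Hist1h2ab*. Thus 5 of the 6 genes of the linker histone H1, all but the germ-line *Hist1h1t*, are among these. *Hist1h2aa* differed by 1.85 between clusters 6 and 8 and by 1.61 between clusters 7 and 8, and *Hist4h4* by 2.76 between clusters 7 and 8. All 11 differences passed the adjusted threshold. In each of clusters 6 to 9 the G2/M list was higher in both *Meioc*-null than in both wild-type libraries. In clusters 7 to 9 so were the preleptotene markers, which include *Meioc* itself. Their part in these differences was not tested.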

How the results depend on the processing

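All 48 calls of the genes named in full kept their sign under each alternative that gave a value. Over those alternatives 451 values kept the call and 102 lost it. The losses were 20 without wild-type replicate 2, 17 with DESeq2, 14 with a coarser clustering, 12 without wild-type replicate 1, 10 without doublet removal, 10 without *Meioc*-null replicate 2, 6 without *Meioc*-null replicate 1, 6 in S phase cells, 5 with 15 neighbours and 2 without a filter on low counts. DESeq2 gave no adjusted p for *Hist1h3e* in cluster 6. DESeq2 size factors and the replicate block ended none of these calls.

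The number of histone genes called moved as follows. Under the replicate block it became 1 (cluster 2), 6 (clusters 3 and 4), 20 (cluster 5), 35 (cluster 6), 28 (cluster 7) and 20 (cluster 8), against 0.82, 1.42, 1.95, 11.9, 36.3, 47.1 and 50.8% of all genes, and no other count moved by over 1.5 times. Lifting the filter on low counts gave 2 (cluster 5), 14 (cluster 6) and 1 (Sertoli-like cells), against 2.62, 12.8 and 1.61%. Requiring a UMI in 25% of the cells left fewer genes to test and gave 5 of 13 (cluster 7), 4 of 14 (cluster 8) and 9 of 17 (cluster 9), against 43, 54.3 and 66.6% of all genes. A coarser clustering of at least 8 clusters gave 4 (clusters 6 and 7, which it merged), S phase cells alone 0 (cluster 6), DESeq2 3 (cluster 8) and keeping doublets 7 (cluster 8), against 15.1, 19.8, 26 and 40.7%. Leaving out each library in turn gave 0 to 2 (clusters 1, 3 and 5), 0 to 1 (cluster 2), 0 to 9 (cluster 4), 2 to 18 (cluster 6), 11 to 24 (cluster 7), 10 to 15 (cluster 8), 19 to 25 (cluster 9), 0 to 9 (Sertoli-like cells) and 0 to 1 (myoid-like cells). The shares of all genes were then 0.05 to 1.42, 0.0807 to 0.652, 0 to 0.553, 9.53 to 15.5, 20.4 to 30.5, 28 to 40.9, 46.4 to 51.6, 0 to 5.09 and 0.0397 to 0.381%. The lone library was then assumed to vary like the other group. It stands for a single batch while the other group holds both, so batch and genotype are unbalanced in these fits. Except for the 25% limit, the cause was not tested.

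Of values not called, 10 turned sign. With each library left out in turn the ranges were -0.069 to 2.08 for *Hist1h2ap* in cluster 6, -0.28 to 1.32 for *Hist1h2ap* in cluster 7, -1.06 to 0.15 for *Hist1h2ba* in cluster 8, -0.27 to 0.93 for *Hist1h2ba* in cluster 9, -0.62 to 0.19 for *Hist1h1t* in cluster 6 and -0.25 to 0.19 for *Hist1h1t* in cluster 8. The turns came without wild-type replicate 2 for *Hist1h2ap* (both clusters), *Hist1h2ba* (cluster 9) and *Hist1h1t* (cluster 8), without *Meioc*-null replicate 1 for *Hist1h2ba* (cluster 9, -0.13) and *Hist1h1t* (cluster 8, -0.019), without *Meioc*-null replicate 2 for *Hist1h2ba* (cluster 8) and *Hist1h1t* (cluster 6, 0.012), and without wild-type replicate 1 for *Hist1h1t* (cluster 6). With a coarser clustering *Hist1h1t* in cluster 6 was at 0.030. S phase cells alone sufficed for a fit in clusters 1 to 6, and under 5% mitochondrial UMIs in clusters 3, 4 and 5 and the somatic cells, so those alternatives were not run elsewhere.

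The libraries capture poly(A), and canonical histone messages mostly lack it, so the values describe the captured part. The replicate block leaves 1 residual degree of freedom, so its very small p-values rest on spread shared across genes. With 2 mice per genotype, a missing call does not show equal levels. Clusters with few *Meioc*-null cells, such as cluster 9, leave low genes with few UMIs.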
